A study of Mesocricetus auratus with 36 samples.

Results

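The genes described here encode 10 neuropeptides of the hypothalamus: Penk, Cartpt, Kiss1, Pomc, Npy, Agrp, Sst, Gal, Trh and Tac1. They were chosen by gene symbol, as peptides of feeding, reproduction and opioid signalling. A row was found for 8 of the 10, out of 32340 genes in the count tables. Agrp and Trh are not analysed here. All 8 passed the filter on low counts, which left 17926 genes to test. Each is protein-coding, and together they lie on 7 scaffolds of the golden hamster assembly BCM_Maur_2.0. Kiss1 (bases 56163506 to 56168543, minus strand) and Npy (bases 113244844 to 113253343, plus strand) share a scaffold.

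A neuropeptide is made as a long precursor, cut by convertases inside dense core granules and released to act on G protein-coupled receptors. In the mediobasal hypothalamus the neurons of the arcuate nucleus use such peptides to link energy stores to appetite and day length to reproduction. They lie next to the wall of the third ventricle, which is lined by tanycytes, glial cells that touch the cerebrospinal fluid. Pomc and Cartpt products reduce feeding, Npy raises it, kisspeptin from Kiss1 drives the neurons that release gonadotropin-releasing hormone, and Penk gives rise to the enkephalins, which are opioids.

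RNA came from the tanycyte-enriched ependymal region of male golden hamsters (Mesocricetus auratus), cut out by laser capture, with 6 animals in each of 6 groups. Long photoperiod animals had 14 h of light at 22 °C and are labelled 8 months old. The other groups were moved to 10 h of light at 8 °C and kept there. Pre-hibernation animals were taken after 4 weeks (4 months old) and late pre-hibernation animals after 8 to 12 weeks, before any torpor (6 months old). Interbout euthermia and torpor animals, both 6 months old, had passed through 3 torpor cycles and were taken 23 h into the warm interval or 13 h into torpor. Refractory animals (8 months old) had left hibernation by themselves after about 20 weeks and were sampled 2 weeks or more after the last bout. Per the protocol, some long photoperiod animals were taken before the switch and some when the experiment ended, which leaves their ages uncertain. All animals carried an abdominal temperature logger, implanted under isoflurane, and ate freely. Against long photoperiod, light and temperature differ together, as does labelled age except in the refractory group, and they cannot be told apart. The other 5 groups share light and temperature, and among them age and time on short days differ together.

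Total counts per library ran from 5.16 M to 28.54 M (median 22.44 M, where M is 1000000 counts). Ribosomal RNA genes took 41.8% of the counts in refractory 4, 9.28% in pre-hibernation 5 and 7.21% in interbout euthermia 6, and at most 0.826% in the other 33. These 3 are called the rRNA-rich libraries. Tanycyte markers were present in every group: 15 of 17 listed were tested and none was at 0 across a group. They summed to 1429 to 3377 normalised counts per 1000000 (CPM), of which Vim alone averaged 1065 to 1398 CPM per group. Ependymal cilia markers summed to 3710 to 7459 CPM and astrocyte markers to 2280 to 5244 CPM. Enrichment of the cut for tanycytes was not tested by these sums. Neuron markers were present everywhere too, with 27 of them summing to 1060 to 2283 CPM. Their mean log2 CPM is used below as the neuron score of a library. It is a rough measure of how much neuronal RNA was cut out with the ependyma, since single markers also differed between groups. In bulk tissue of this kind, fewer cells of a type and less RNA per cell cannot be told apart.

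Per kilobase of exon, the 8 genes spanned a wide range. The median over the 36 libraries was 111 CPM per kb for Npy, 83.8 for Pomc, 68.2 for Sst, 58.2 for Gal and 32.6 for Cartpt. It was 5.04 CPM per kb for Tac1, 4.56 for Penk and 3.82 for Kiss1. The order of Npy and Pomc depended on the group: the Pomc median was above that of Npy in long photoperiod (206 against 101.5 CPM per kb) and refractory animals (193 against 94.5), and below it in the other 4 groups. The 3 genes at the low end were nonetheless counted in every library, with at least 22 reads for Tac1, 26 for Penk and 16 for Kiss1. Variation between libraries was largest for Pomc, whose highest CPM was 41.1 times its lowest, and smallest for Gal (3.96 times).

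Penk, Kiss1, Pomc and Cartpt differed among the groups and the other 4 did not pass. In edgeR's quasi-likelihood F test over all 6 groups, the adjusted p was 7.51e-06 for Penk, 0.000203 for Kiss1, 0.00833 for Pomc and 0.0221 for Cartpt. It was 0.0694 for Tac1, 0.112 for Gal, 0.156 for Sst and 0.553 for Npy. Of all genes tested, 14.6% passed the same test at the threshold of 0.05. Without the rRNA-rich libraries Gal (0.0371) and Tac1 (0.0366) passed as well, which makes 6 of 8, while 27.7% of all genes then passed.

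**Figure D1:**
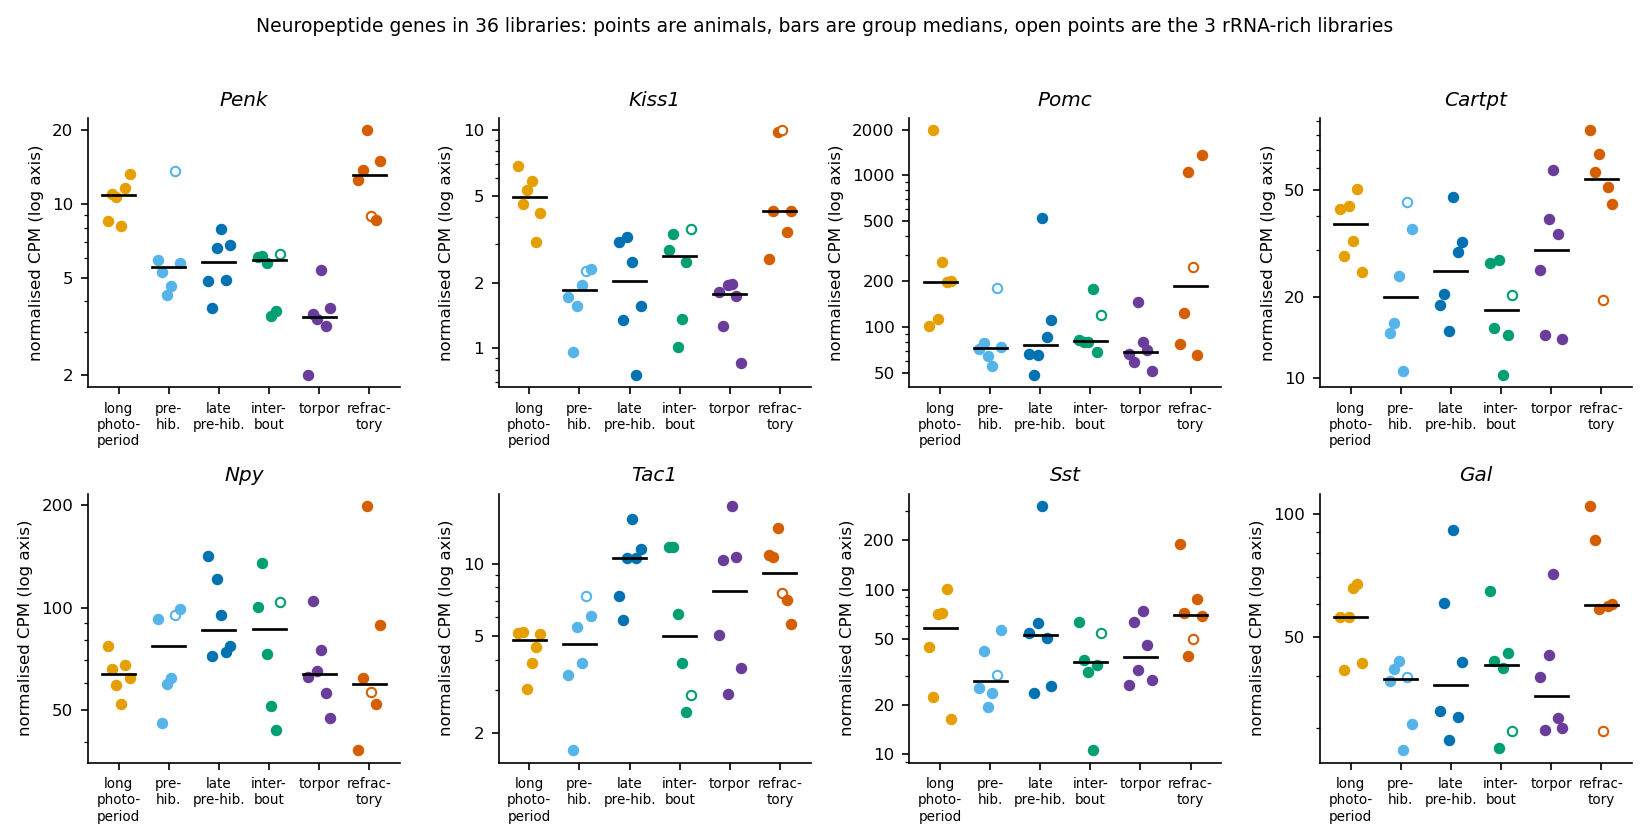
Normalised CPM (log axis) of the 8 neuropeptide genes in each of 36 libraries, by group; points are animals, bars are group medians and open points are the 3 rRNA-rich libraries. Penk and Kiss1 lie lower in torpor than in every long photoperiod animal, and a few animals stand far above the rest of their group for Pomc and Sst.

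Against long photoperiod, the genes that passed the test were all lower, and none of the 8 rose. In pre-hibernation 1 of 8 fell (Kiss1), where 2.29% of all genes were called, 1.61% higher and 0.681% lower. In late pre-hibernation 2 of 8 fell (Kiss1 and Penk; 3.58% of all genes called, 2.25% higher and 1.33% lower), and in interbout euthermia 1 of 8 (Penk; 1.85% called, 1.21% higher and 0.642% lower). In torpor 3 of 8 fell (Penk, Kiss1 and Pomc; 9.05% called, 4.32% higher and 4.73% lower). The median log2 fold change of the 8 genes was -0.65, -0.32, -0.73 and -0.34 in these 4 comparisons, beside 0.01, 0, 0.01 and 0.01 over all genes tested. The comparisons share the same 6 long photoperiod animals.

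In refractory animals no gene of the 8 passed against long photoperiod, where 0.329% of all genes were called by edgeR (0.0781% higher, 0.251% lower). At an unadjusted p under 0.05, 2327 genes passed in that comparison, and DESeq2 called 313 and limma voom 186 after adjustment, again with 0 of the 8. All 8 estimates were higher in the refractory group, with a median log2 fold change of 0.36 beside 0.03 over all genes. Against interbout euthermia 3 of 8 rose (Penk, Cartpt and Kiss1; 3.50% of all genes called, 2.04% higher and 1.47% lower), with a median of 1.17 beside 0.02.

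Between neighbouring stages within short photoperiod none of the 8 genes passed. Late pre-hibernation against pre-hibernation and interbout euthermia against late pre-hibernation each gave 0 called genes of 17926 in edgeR (0%), with 739 and 1104 genes at an unadjusted p under 0.05. DESeq2 called 4 and 33 genes in them and limma voom 10 and 550, with 0 of the 8 genes each time. In torpor against interbout euthermia 4.06% of all genes were called (1.13% higher, 2.93% lower) and 0 of the 8. The median log2 fold change of the 8 genes was -0.17 beside 0.01 over all genes.

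**Figure D2:**
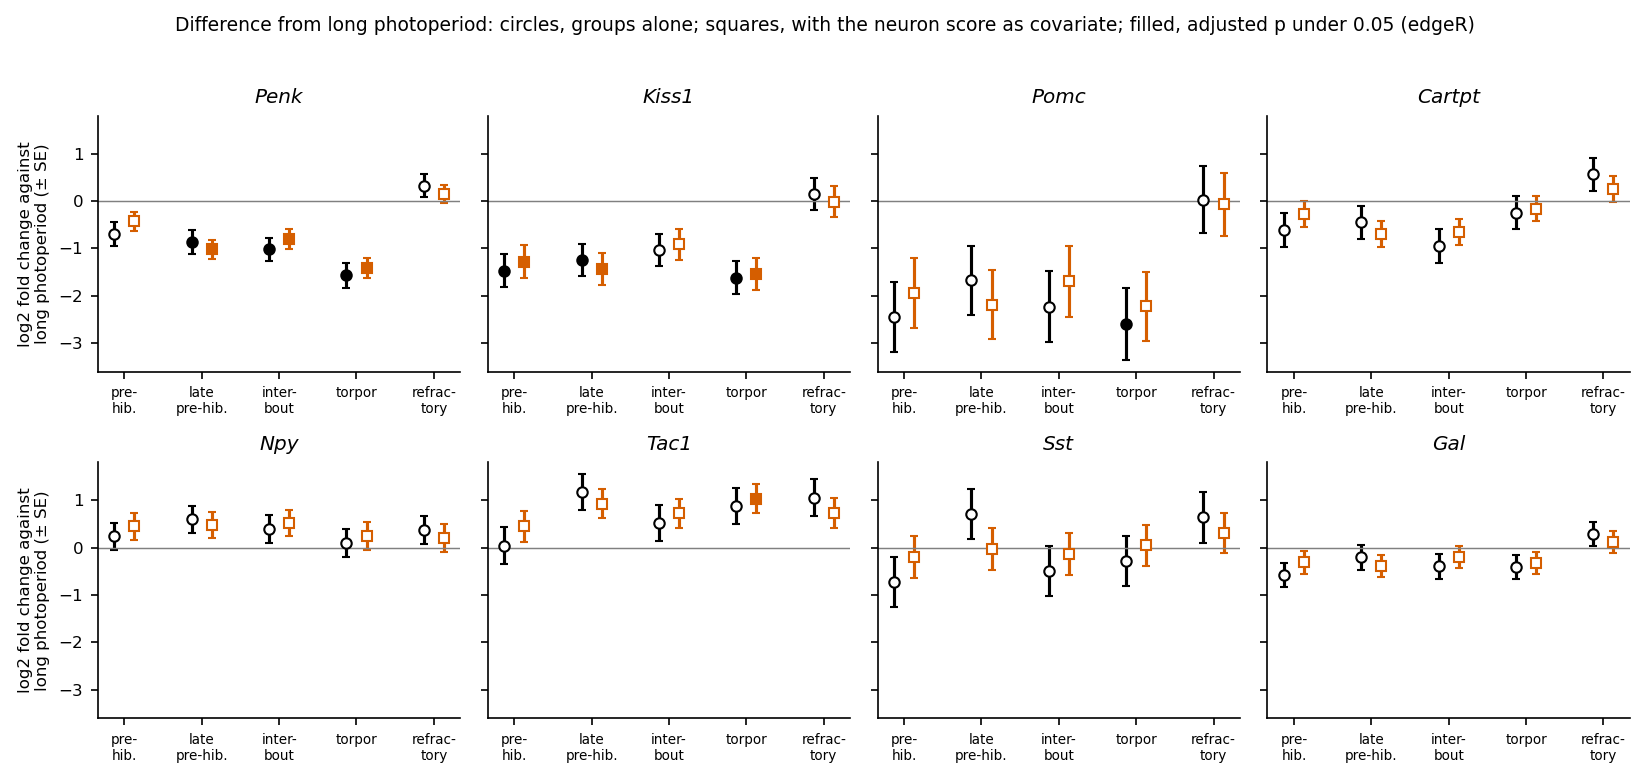
Log2 fold change ± SE against long photoperiod for the 8 genes in the 5 other groups (n = 6 each); black circles are from the fit of groups alone, orange squares from the fit with the neuron score as covariate, and filled symbols have an adjusted p under 0.05. Penk in torpor is at -1.57 and -1.42 in the fits without and with the score, and every refractory symbol is open.

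Penk, the enkephalin precursor, was lower in late pre-hibernation, interbout euthermia and torpor than in long photoperiod and rose from interbout euthermia to the refractory state. In long photoperiod animals the lowest, median and highest levels were 8.14, 10.8 and 13.3 CPM. They were 4.24, 5.51 and 13.7 CPM in pre-hibernation and 3.75, 5.77 and 7.90 CPM in late pre-hibernation. They were 3.48, 5.90 and 6.23 CPM in interbout euthermia, 2.00, 3.47 and 5.39 CPM in torpor, and 8.59, 13.2 and 20.0 CPM in refractory animals. Every late pre-hibernation, interbout and torpor animal thus lay below every long photoperiod animal, and every refractory animal lay above every interbout animal.

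In torpor Penk was 2.98-fold lower than in long photoperiod (log2 fold change -1.57 ± 0.26, adjusted p = 6.67e-05, edgeR). The difference was -0.86 ± 0.25 in late pre-hibernation (adjusted p = 0.0454) and -1.02 ± 0.25 in interbout euthermia (adjusted p = 0.0242). Groups that do not overlap in the lower direction occur for 1.68%, 0.943% and 4.12% of all genes in the late pre-hibernation, interbout and torpor comparisons. In pre-hibernation 5 of 6 animals lay below all long photoperiod animals, and the exception, at 13.7 CPM, is the rRNA-rich pre-hibernation 5. The difference there was -0.70 ± 0.25 (adjusted p = 0.170), and -1.04 ± 0.22 (adjusted p = 0.00297) without the rRNA-rich libraries.

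Penk rose at the end of the hibernation season. Refractory animals were 2.56-fold above interbout animals (log2 fold change 1.35 ± 0.25, adjusted p = 0.00487, edgeR), and 0.324% of all genes lie in that comparison with every refractory animal above every interbout animal. Against long photoperiod the refractory estimate was 0.33 ± 0.25 (adjusted p = 0.598). Torpor stood 0.55 ± 0.26 below interbout euthermia on the log2 scale, which did not pass (adjusted p = 0.283). The torpor call passed in all 14 alternative fits and with each library left out in turn. The late pre-hibernation call was lost in 9 of 12 fits with 1 library left out, with an adjusted p of up to 0.111, and the interbout call in 3 of 12, with up to 0.0781.

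Kiss1, the kisspeptin precursor, was low in the pre-hibernation, late pre-hibernation and torpor groups. The lowest, median and highest levels were 3.06, 4.93 and 6.83 CPM in long photoperiod animals. They were 0.961, 1.84 and 2.31 CPM in pre-hibernation, 0.756, 2.02 and 3.24 CPM in late pre-hibernation and 0.857, 1.78 and 1.97 CPM in torpor. Interbout animals had 1.01, 2.64 and 3.52 CPM and refractory animals 2.58, 4.25 and 9.94 CPM. All pre-hibernation and torpor animals lay below all long photoperiod animals, while 1 late pre-hibernation animal and 2 interbout animals overlapped with them.

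Kiss1 was 2.78-fold lower in pre-hibernation (log2 fold change -1.47 ± 0.35, adjusted p = 0.0133, edgeR), after 4 weeks of short days and cold. It was 2.38-fold lower in late pre-hibernation (-1.25 ± 0.34, adjusted p = 0.0286) and 3.08-fold lower in torpor (-1.62 ± 0.35, adjusted p = 0.00172). Interbout euthermia gave -1.04 ± 0.34, which did not pass (adjusted p = 0.122). Without the rRNA-rich libraries the interbout difference passed, at -1.17 ± 0.35 (adjusted p = 0.0454). Of all genes, 1.37% in the pre-hibernation and 4.12% in the torpor comparison have groups that do not overlap with the long photoperiod animals above.

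Refractory Kiss1 was 2.29-fold above interbout euthermia (1.19 ± 0.35, adjusted p = 0.0458). The refractory values are uneven: 2 of 6 animals, among them the rRNA-rich refractory 4, reached 9.74 and 9.94 CPM, and the next had 4.25 CPM. This call was lost in 7 of 12 fits with 1 library left out, with an adjusted p of up to 0.121, and without the rRNA-rich libraries (1.14, adjusted p = 0.0706). The late pre-hibernation call was lost in 6 of 12 (up to 0.0929). Kiss1 rests on few reads, 16 to 227 per library.

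Pomc, the precursor of melanocortins and beta-endorphin, was dominated by single animals. The lowest, median and highest levels were 101, 199.9 and 1985 CPM in long photoperiod animals and 65.9, 187 and 1358 CPM in refractory animals. Pre-hibernation animals had 55.1, 73.2 and 181 CPM and late pre-hibernation animals 48.3, 76.0 and 522 CPM. Interbout animals had 68.6, 81.2 and 178 CPM and torpid animals 51.7, 68.6 and 146 CPM. In each short photoperiod group before the refractory state, 4 or 5 of 6 animals lay below all long photoperiod animals.

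The torpor difference passed, at -2.60 ± 0.76 (adjusted p = 0.0258, edgeR), and was lost in 5 of 12 fits with 1 library left out. Without long photoperiod 2, the animal at 1985 CPM, it was -1.17 with an adjusted p of 0.316. It was also lost with limma voom (-1.54, adjusted p = 0.0832), with no filter (-2.60, adjusted p = 0.0587) and with long photoperiod 4 to 6 alone (-1.51, adjusted p = 0.345). The Pomc test over all 6 groups had an adjusted p of 0.0503 with limma voom. Pre-hibernation gave -2.45 ± 0.75 (adjusted p = 0.0860), interbout euthermia -2.23 ± 0.75 (adjusted p = 0.141) and late pre-hibernation -1.67 ± 0.73 (adjusted p = 0.279). The pre-hibernation difference passed without the rRNA-rich libraries (-2.82 ± 0.86, adjusted p = 0.0458). Leaving out long photoperiod 2 instead gave it an adjusted p of 0.559. Refractory against interbout euthermia gave 2.27 ± 0.75 (adjusted p = 0.0838).

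Pituitary genes, which the pituitary makes beside Pomc, moved with Pomc in part, and single genes and libraries departed from this. Of 14 listed pituitary markers other than Pomc, 13 had a row and 8 were tested, and the mean log2 CPM of those 8 is the pituitary score. The 13 summed to 65.0 to 436 CPM in long photoperiod animals, 43.9 to 805 in refractory animals and 30.1 to 52.4 in torpor. Pre-hibernation libraries had 38.7 to 171 CPM, late pre-hibernation libraries 41.2 to 109.6 and interbout libraries 44.6 to 49.6. The score averaged 2.81 ± 0.92 in long photoperiod and 2.14 ± 1.54 in refractory animals (SD, n = 6). Among the short photoperiod groups before them it was 0.59 ± 0.69 at pre-hibernation, 0.72 ± 0.99 at the late stage, 0.28 ± 0.24 between bouts and 0.28 ± 0.64 during torpor. The exact two-sided permutation p over 924 splits, adjusted over 9 comparisons, was 0.00649 for pre-hibernation, interbout euthermia and torpor against long photoperiod. It was 0.0195 for late pre-hibernation against long photoperiod and for refractory against interbout euthermia.

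The other pituitary genes differed among the animals with the most Pomc. Long photoperiod 2 had 282 CPM of Gh1 (growth hormone), 59.6 of Cga (the common glycoprotein hormone subunit) and 1.96 of Pax7 (a factor of intermediate lobe cells). Refractory 3, at 1049 CPM of Pomc, had 525 CPM of Gh1, 144 of Cga and 0.944 of Pax7. Refractory 6, at 1358 CPM of Pomc, had 3.60 CPM of Gh1 and 5.30 of Cga, but 1.73 of Pax7, or 51 reads. Late pre-hibernation 4, at 522 CPM of Pomc, had 48.0 CPM of Gh1 and 0.940 of Pax7. Among the torpor animals the highest for Pomc (torpor 3, 146 CPM) was also the highest for Gh1, at 7.88 CPM. Pre-hibernation 1 went the other way, with 103.7 CPM of Cga at 71.98 CPM of Pomc and 0 of Gh1. Medians of Tbx19, another listed marker, were 5.56 CPM in long photoperiod, 3.255 in pre-hibernation and 4.98 in late pre-hibernation. They were 5.14 CPM in interbout euthermia, 4.36 in torpor and 7.39 in refractory animals.

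**Figure D3:**
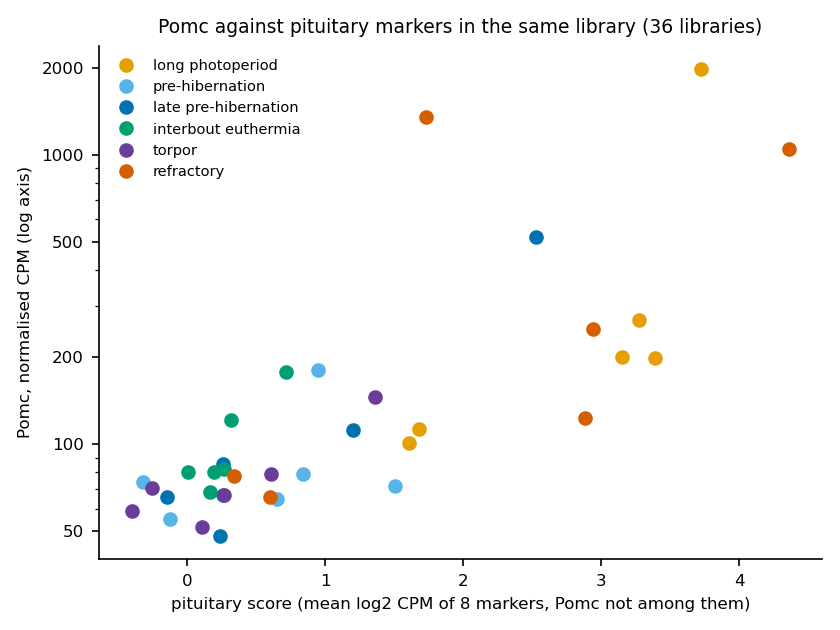
Pomc (normalised CPM, log axis) against the pituitary score (mean log2 CPM of 8 pituitary genes) in 36 libraries, coloured by group. The libraries above 500 CPM of Pomc have scores of 1.73 to 4.36, while the torpor libraries lie between -0.40 and 1.36.

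With the neuron and pituitary scores as covariates the Pomc estimate changed sign in torpor (0.24 ± 0.83, adjusted p = 0.950, edgeR), pre-hibernation (0.19 ± 0.78, adjusted p = 0.948), late pre-hibernation (0.24 ± 0.80, adjusted p = 0.954) and interbout euthermia (0.63 ± 0.81, adjusted p = 0.796). In a fit with the pituitary score alone, chosen after seeing the data, Pomc had a slope of 0.97 ± 0.20 log2 units per unit of the score (adjusted p = 0.0351), and none of the other 7 genes passed (adjusted p of 0.854 to 0.996). Penk in torpor against long photoperiod still passed in the fit with both scores (-1.24 ± 0.27, adjusted p = 0.00770). Kiss1 in torpor kept its direction and did not pass there (-1.36 ± 0.42, adjusted p = 0.0824), nor did it in pre-hibernation (-1.12 ± 0.41, adjusted p = 0.315). Penk in late pre-hibernation (-0.84, adjusted p = 0.135) and interbout euthermia (-0.62, adjusted p = 0.498) did not pass in that fit, nor did the refractory rise of Penk (0.83, adjusted p = 0.265) and of Cartpt (1.02, adjusted p = 0.334). The pituitary score itself differs between these groups, and its part in the Penk and Kiss1 results was not tested further.

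Cartpt, the precursor of the cocaine- and amphetamine-regulated transcript peptides, was lowest in interbout euthermia and highest in refractory animals. The lowest, median and highest levels were 24.8, 37.3 and 50.2 CPM in long photoperiod, with 10.6, 19.96 and 45.1 CPM at pre-hibernation and 14.9, 25.0 and 46.95 CPM at the late stage. They were 10.3, 17.8 and 27.6 CPM in interbout euthermia, 13.9, 29.8 and 59.3 CPM in torpor and 19.5, 54.8 and 83.1 CPM in refractory animals. In the refractory group 5 of 6 animals lay above all interbout animals, and the exception was the rRNA-rich refractory 4.

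The rise from interbout euthermia to the refractory state was 2.87-fold (log2 fold change 1.52 ± 0.36, adjusted p = 0.0190, edgeR), and 1.69 (adjusted p = 0.0134) without the rRNA-rich libraries. It was lost in 1 of 12 fits with 1 library left out (without interbout euthermia 4, adjusted p = 0.0526). The test over all groups was lost without refractory 1 (adjusted p = 0.0694). None of the 5 differences from long photoperiod passed, from -0.95 ± 0.35 in interbout euthermia (adjusted p = 0.211) to 0.57 ± 0.35 in refractory animals (adjusted p = 0.514).

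Npy, which encodes an orexigenic peptide, showed no difference that passed in any comparison. Its lowest, median and highest levels were 52.0, 63.8 and 77.1 CPM in long photoperiod and 71.9, 86.1 and 142 CPM in late pre-hibernation. Pre-hibernation animals had 45.6, 77.2 and 99.2 CPM and interbout animals 43.5, 86.7 and 136 CPM. Torpid animals had 47.4, 63.7 and 105 CPM and refractory animals 37.9, 59.3 and 199.6 CPM. The ranges of all 6 groups overlap. The largest estimate against long photoperiod was in late pre-hibernation (0.60 ± 0.29, adjusted p = 0.365), and the torpor estimate was 0.10 ± 0.29 (adjusted p = 0.903).

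Tac1, which encodes substance P and neurokinin A, was higher in late pre-hibernation and refractory animals without passing the test. Long photoperiod animals had 3.05, 4.82 and 5.23 CPM (lowest, median, highest), late pre-hibernation animals 5.85, 10.5 and 15.2 CPM and refractory animals 5.603, 9.11 and 14.1 CPM. All 6 animals of both groups lay above all long photoperiod animals, as do 2.80% and 0.206% of all genes in these comparisons. The log2 fold changes were 1.18 ± 0.38 (adjusted p = 0.0904, edgeR) and 1.06 ± 0.39 (adjusted p = 0.198). With the neuron score as covariate they were 0.93 ± 0.31 (adjusted p = 0.0923) and 0.73 ± 0.32 (adjusted p = 0.321). The late pre-hibernation difference passed without the rRNA-rich libraries, none of which is a late pre-hibernation or long photoperiod animal (1.17, adjusted p = 0.0462). Pre-hibernation (1.69, 4.66 and 7.37 CPM), interbout euthermia (2.44, 5.04 and 11.7 CPM) and torpor (2.88, 7.72 and 17.3 CPM) overlapped with long photoperiod.

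Sst (somatostatin) and Gal (galanin), both inhibitory peptides of many hypothalamic neurons, gave no call against any group. Sst ran from a median of 27.7 CPM in pre-hibernation to 70.6 CPM in refractory animals, with 58.1 under long photoperiod, 52.9 at the late stage, 36.2 between bouts and 39.2 during torpor. Its spread within groups was wide: late pre-hibernation 4 had 323 CPM and the other 5 animals of that group 23.6 to 62.7 CPM. Sst estimates against long photoperiod ran from -0.73 ± 0.53 (pre-hibernation, adjusted p = 0.651) to 0.72 ± 0.53 (late pre-hibernation, adjusted p = 0.640). Gal medians were 56.01 CPM in long photoperiod, 59.7 in refractory animals and 35.8 to 42.8 in the other 4 groups, and its estimate against long photoperiod was furthest from 0 in pre-hibernation (-0.58 ± 0.26, adjusted p = 0.356). Refractory against interbout euthermia gave 0.67 ± 0.26 for Gal (adjusted p = 0.149) and 1.14 ± 0.53 for Sst (adjusted p = 0.233).

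The neuron score varied between libraries, and 5 of the 8 genes varied with it. The neuron score was highest in refractory (4.57 ± 0.24), late pre-hibernation (4.56 ± 0.36) and long photoperiod animals (4.40 ± 0.13; SD, n = 6). It was 4.23 ± 0.36 during torpor, 4.17 ± 0.34 between bouts and 4.09 ± 0.20 at pre-hibernation. No difference between groups passed after adjustment over 9 comparisons (exact two-sided permutation test; smallest adjusted p 0.0779, for pre-hibernation against long photoperiod and for late pre-hibernation against pre-hibernation). The vesicle protein gene Snap25 averaged 52.1 ± 9.67 CPM in pre-hibernation and 82.9 ± 31.3 CPM in late pre-hibernation, and Syn1 15.8 ± 4.95 and 27.6 ± 8.81 CPM. Single markers did not all follow the score. Sv2a was higher than in long photoperiod at pre-hibernation (log2 fold change 0.70 ± 0.18, adjusted p = 0.0266, edgeR), where the score was lowest. From pre-hibernation to torpor 1, 3, 1 and 1 of the 27 markers rose against long photoperiod and 0 fell. Over all 6 groups 7 of 27 passed, beside 14.6% of all genes.

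Within groups, a library with a neuron score higher by 1 had more Sst by 1.80 ± 0.42 log2 units (adjusted p = 0.0104, edgeR). The slope was 1.49 ± 0.32 for Tac1 (adjusted p = 0.00395), 1.43 ± 0.28 for Cartpt (adjusted p = 0.00151), 0.99 ± 0.22 for Penk (adjusted p = 0.00487) and 0.84 ± 0.23 for Gal (adjusted p = 0.0373). These 5 of 8 compare with 2.53% of all genes, 2.43% of them upward, the markers of the score included. Pomc (1.56 ± 0.71, adjusted p = 0.356), Npy (0.74 ± 0.31, adjusted p = 0.291) and Kiss1 (0.73 ± 0.37, adjusted p = 0.428) did not pass. The Sst slope was 1.13 (adjusted p = 0.471) and the Gal slope reached an adjusted p of 0.486 without late pre-hibernation 4, the library with the highest score (5.25). With only the 10 synaptic markers in the score, Sst alone passed.

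**Figure D4:**
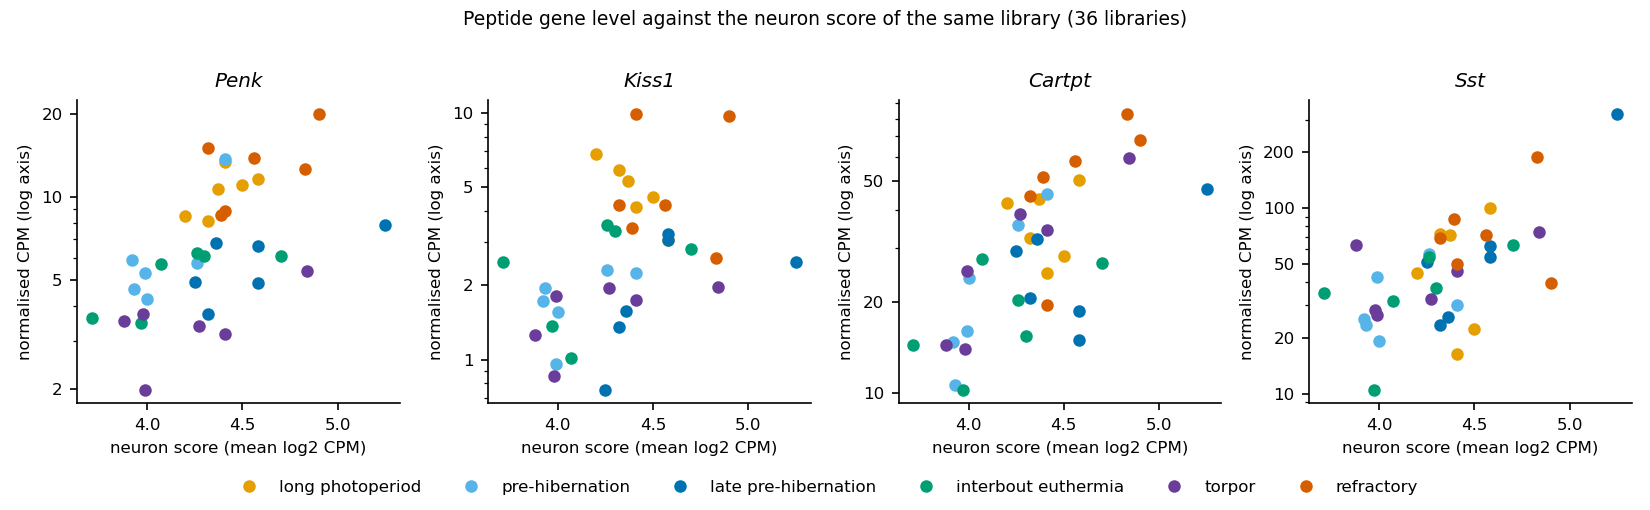
Normalised CPM (log axis) of Penk, Kiss1, Cartpt and Sst against the neuron score (mean log2 CPM of 27 neuron markers) in 36 libraries, coloured by group. Long photoperiod and refractory points for Penk lie above torpor points at similar scores, and the Sst point at 323 CPM is the library with the highest score, 5.25.

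With the neuron score as a covariate, Penk and Kiss1 kept their calls against long photoperiod. Penk was at -1.42 ± 0.21 in torpor (adjusted p = 1.82e-05, edgeR), -1.02 ± 0.20 in late pre-hibernation (adjusted p = 0.00154) and -0.81 ± 0.21 in interbout euthermia (adjusted p = 0.0367). Kiss1 was at -1.28 ± 0.35 in pre-hibernation (adjusted p = 0.0473), -1.43 ± 0.34 in late pre-hibernation (adjusted p = 0.00936) and -1.54 ± 0.34 in torpor (adjusted p = 0.00226). Tac1 then rose in torpor (1.04 ± 0.31, adjusted p = 0.0290), and Pomc in torpor no longer passed (-2.22 ± 0.73, adjusted p = 0.0550). The Tac1 rise did not pass without a score (0.89 ± 0.38, adjusted p = 0.160) or with both scores (0.79 ± 0.42, adjusted p = 0.434). Without torpor 4, the fit of groups alone gave Tac1 an adjusted p of 0.467. With the score, the 1 gene of 8 called in pre-hibernation against long photoperiod stood beside 1.73% of all genes (1.19% higher, 0.536% lower), and the 2 in late pre-hibernation beside 3.90% (2.39% and 1.51%). The 1 in interbout euthermia stood beside 1.50% (0.960% and 0.541%) and the 3 in torpor beside 8.67% (3.92% and 4.75%). The refractory group again gave 0 of 8 against long photoperiod, beside 0.229% of all genes (0.0335% and 0.195%).

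With the neuron score in the fit, 1 of the 3 rises at the end of the season passed. From interbout euthermia to the refractory state Penk still rose (0.95 ± 0.22, adjusted p = 0.0390), while Cartpt (0.91 ± 0.30, adjusted p = 0.121) and Kiss1 (0.90 ± 0.37, adjusted p = 0.229) did not pass. That leaves 1 of 8 genes, beside 0.965% of all genes (0.524% higher, 0.441% lower). Between neighbouring short photoperiod stages no gene of the 8 passed with the score. Of all genes, 0% passed from pre-hibernation to late pre-hibernation and 0.00558% from late pre-hibernation to interbout euthermia. From interbout euthermia to torpor 4.30% did. Over all 6 groups, Penk (5.56e-06), Kiss1 (0.000842) and Pomc (0.0309) passed with the score and Cartpt did not (adjusted p = 0.0684), beside 12.7% of all genes. Sst moved furthest: its adjusted p over all groups went from 0.156 to 0.935.

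Other hypothalamic neuropeptides were followed from a list of 36, of which 16 were tested. Against long photoperiod 1 of 16 rose in pre-hibernation, late pre-hibernation, interbout euthermia and torpor, and each time it was Nmb (neuromedin B, a bombesin-like peptide). Nmb averaged 2.37 ± 0.506 CPM in long photoperiod and 8.12 ± 3.68 CPM in late pre-hibernation (SD, n = 6), a log2 fold change of 1.77 ± 0.25 (adjusted p = 1.49e-05, edgeR). In torpor 2 of 16 fell: Npvf, whose RF-amide product acts on the gonadotropin axis, from 2.98 ± 2.15 to 0.257 ± 0.277 CPM (-3.52 ± 0.77, adjusted p = 0.00213), and Ghrh, the releasing hormone for growth hormone, from 4.21 ± 0.856 to 1.98 ± 1.03 CPM (-1.09 ± 0.34, adjusted p = 0.0344).

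From interbout euthermia to torpor 2 of 16 of these peptides fell, Ghrh (-1.18 ± 0.34, adjusted p = 0.0365) and Pthlh, the parathyroid hormone-like hormone (-1.0 ± 0.23, adjusted p = 0.00612). The other 14 did not pass, and neither did any of the 16 in refractory animals against long photoperiod or against interbout euthermia. Over all groups 5 of 16 passed, among them Pdyn, the dynorphin precursor (adjusted p = 0.0162). Of the 16, Pnoc (slope 1.08 ± 0.23, adjusted p = 0.00380) and Nts (1.47 ± 0.38, adjusted p = 0.0241) passed with the neuron score. With both scores as covariates Nmb kept its rise in those 4 comparisons, and neither Npvf nor Ghrh passed in torpor against long photoperiod. Pdyn fell in refractory animals against long photoperiod in that fit. From interbout euthermia to the refractory state, 1 of 16 fell with the neuron score as covariate. Without the rRNA-rich libraries 1 of 16 fell there too, which was Nmb.

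Genes that process peptides and build dense core granules gave 1 called gene between groups. Of 24 listed, 19 were tested, and the only call between 2 groups was Cadps, a priming factor of dense core vesicles. It rose from 5.70 ± 0.673 CPM in long photoperiod to 17.3 ± 7.92 CPM in late pre-hibernation (1.60 ± 0.42, adjusted p = 0.0227, edgeR) and 15.2 ± 15.0 CPM in torpor (1.41 ± 0.42, adjusted p = 0.0290). Neither rise passed with both scores as covariates. Without the rRNA-rich libraries Scg3 also fell against long photoperiod in late pre-hibernation, interbout euthermia and torpor, Trhde in late pre-hibernation and Resp18 in pre-hibernation. The convertase gene Pcsk2 did not pass in any of the 9 comparisons (adjusted p of 0.124 to 0.975), and the list's median log2 fold change lay between -0.20 and 0.26. Of the 19, 6 had a slope on the neuron score, among them the granins Chga (1.21 ± 0.18, adjusted p = 3.55e-05), Scg2 (1.09 ± 0.15, adjusted p = 6.57e-06) and Chgb (1.06 ± 0.18, adjusted p = 0.000238), and Pcsk2 (1.15 ± 0.28, adjusted p = 0.0142). Chga also passed over all groups (adjusted p = 0.0172).

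Among the receptors of the peptides, 17 of 25 listed were tested, and 4 of 17 fell in torpor against long photoperiod. They were the somatostatin receptors Sstr2 (3.50 ± 1.02 to 1.07 ± 0.665 CPM, log2 fold change -1.70 ± 0.41, adjusted p = 0.00490, edgeR) and Sstr5 (-0.68 ± 0.16, adjusted p = 0.00505), and the Npy receptors Npy1r (-1.54 ± 0.40, adjusted p = 0.0106) and Npy5r (-1.72 ± 0.57, adjusted p = 0.0492). None of the 4 passed with both scores as covariates. Sstr5 also fell from interbout euthermia to torpor (-0.59 ± 0.16, adjusted p = 0.0302).

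In late pre-hibernation 1 of 17 receptors rose, the delta opioid receptor gene Oprd1, on which enkephalins act. It went from 0.222 ± 0.143 to 1.62 ± 0.826 CPM (2.82 ± 0.68, adjusted p = 0.0107), a call lost with both scores as covariates. Npy5r rose from interbout euthermia to the refractory state (2.11 ± 0.57, adjusted p = 0.0322), a call lost without the rRNA-rich libraries. The other opioid receptors Oprm1 (adjusted p = 0.0293) and Oprk1 (adjusted p = 0.0290) passed over all 6 groups but in none of the 9 comparisons. These lists were written with earlier results of the data known, so their counts are a description.

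The genes whose log2 CPM ran most closely with each peptide over the 36 libraries were named as a description, and the libraries share depth, neuron content and group differences. For Penk they were Crabp1 (Pearson's r = 0.82), Mtx3 (0.77) and Pgpep1 (0.74). For Kiss1 they were Kcnma1 (0.74), Fgf14 (0.72) and Rnf157 (0.70), and for Cartpt Thy1 (0.78), Gad2 (0.76) and Dusp26 (0.74), of which Thy1 and Gad2 are markers in the neuron score. For Pomc they were Chga (0.72), Cga (0.67) and Chgb (0.64), so a pituitary hormone subunit and 2 granins. Npy ran with Peg10 (0.64), Slc45a1 (0.63) and Isl1 (0.62), and Sst with Nkx6-2 (0.71), Nrsn1 (0.70) and Dusp26 (0.70). Gal ran with Selenop (0.84), Azgp1 (0.83) and Matk (0.82), and Tac1 with Podxl2 (0.73), Tmem151a (0.71) and Tubb4a (0.70).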

How the data were processed

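Raw counts per gene were used as the authors deposited them, 1 table per library. Per the file headers, featureCounts 2.0.1 counted paired-end fragments over exons, unstranded, with the RefSeq annotation of BCM_Maur_2.0, so reads of a gene and of an antisense neighbour cannot be told apart. No aligner version is given in the sources used here. RNA integrity numbers lay between 7 and 9 and each group held 6 brains, per the labels.

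Genes were filtered with filterByExpr and scaled with TMM, and the 36 libraries were fitted in 1 robust quasi-likelihood model with edgeR 4.0.16 under R 4.3.3. Adjustment was by Benjamini-Hochberg over all 17926 tested genes (threshold 0.05), and every gene p value is from edgeR unless another tool is named. CPM use TMM factors, log2 CPM a prior count of 2. The neuron score is the mean log2 CPM of 27 tested neuron markers (28 listed), the pituitary score that of 8 (14 listed). Scores were compared with exact permutation tests.

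The 10 genes, the marker lists and the companion lists were chosen with earlier results of these data known. All 10 genes are named. From each companion list at most 4 genes with the smallest p that passed in a comparison are named, with a few others from the test over all groups or the slope on the neuron score, chosen after their values were seen, as was Pax7. Prl is not analysed here. The genes most like each peptide are the 3 with the highest Pearson's r among named genes whose mean log2 CPM reached 1.

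Alternatives were RLE factors, DESeq2 1.42.0, limma 3.58.1 voom with quality weights, 1 CPM in 6 libraries or no filter, scores as covariates, the replicate number as a block, the 2 groups alone, long photoperiod 1 to 3 or 4 to 6 alone (their tables are named by different patterns), and fits without the rRNA-rich libraries or each library in turn. The workflow was tested on simulated data. Python 3.11.15 with pandas 2.3.3 and matplotlib 3.10.9 served for tables and plots.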

Additional observations from a re-analysis of the deposited data

Results flagged for a closer look

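In 9 of 48 sets of 6 animals (8 genes in 6 groups) 1 animal stood far above the other 5 by Dixon's ratio. The threshold used flags about 1 set of 20 when values are independent and normally distributed. Here it was applied to CPM without a log, and pre-hibernation 5 and late pre-hibernation 4 were each flagged for more than 1 gene. The 9 of 48 were therefore not tested against chance. Pomc was so in 4 groups: long photoperiod 2 at 1985 CPM, pre-hibernation 5 at 180.7 CPM, late pre-hibernation 4 at 522 CPM and torpor 3 at 146.1 CPM. Sst stood out at 323.1 CPM in late pre-hibernation 4 and at 188.7 CPM in refractory 1. Penk stood out at 13.67 CPM in pre-hibernation 5, which is rRNA-rich, Npy at 199.6 CPM in refractory 3 and Gal at 71.02 CPM in torpor 4. The pituitary score was 3.72 in long photoperiod 2, 2.53 in late pre-hibernation 4 and 4.36 in refractory 3, and the neuron score was 5.25 in late pre-hibernation 4, 4.83 in refractory 1 and 4.84 in torpor 4. Their part in these values was not tested.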

How the results depend on the processing

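Counts of the 8 genes that passed are given in the order pre-hibernation, late pre-hibernation and interbout euthermia against long photoperiod, where the count was 1, 2 and 1. They were 0, 0 and 0 with both scores as covariates, with the pituitary score alone, and with long photoperiod 1 to 3 or 4 to 6 alone; the cause was not tested, but the last fits have 3 reference animals. With the 2 groups alone they were 2, 4 and 2. DESeq2 called 2 in pre-hibernation and 2 in interbout euthermia, beside 637 and 604 of all 17926 genes. With limma voom these were also 2 and 2, beside 2102 and 1543. The fit without the rRNA-rich libraries called 3 (Penk, Kiss1 and Pomc) and 2 (Penk and Kiss1) there, beside 6.37% and 4.73% of all genes. In late pre-hibernation it called Penk and Kiss1 as falls and Tac1 as a rise, beside 9.76%. It lost Kiss1 in refractory against interbout euthermia (adjusted p = 0.0706, edgeR), beside 3.02%. No filter gave 1 in late pre-hibernation. Both scores, or the pituitary score alone, left 1 gene over all groups, 1 in torpor against long photoperiod and 0 in refractory against interbout euthermia. The neuron score or the synaptic score left 1 in refractory against interbout euthermia, and the 2 groups alone left 0. Genes with a slope numbered 1 with the synaptic score. Where no share of all genes stands beside a count in this section, it is not reported here. Those counts alone do not tell a change in the 8 genes from a change in how many genes were called.

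Pomc changed sign with both scores, or with the pituitary score alone: 0.19 and 0.21 in pre-hibernation, 0.63 and 0.65 in interbout euthermia, 0.24 and 0.32 in late pre-hibernation, and 0.24 and 0.28 in torpor, all against long photoperiod. Leaving out 1 library at a time gave 3 to 5 genes over all groups, 1 to 2 in pre-hibernation, 0 to 3 in late pre-hibernation, 0 to 1 in interbout euthermia and 2 to 3 in torpor against long photoperiod. It gave 1 to 4 in refractory against interbout euthermia, 3 to 5 for the slope, and 0 in the other 4 comparisons.

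Same-numbered animals did not pair: their deviations from the group means correlated at -0.34 to 0.48 (median 0.01, 90 pairs), and 2 of 36 libraries correlated best with their own number. With the replicate number as a block 1 gene passed in late pre-hibernation against long photoperiod, and 3 had a slope on the neuron score. The block also ended the Pomc calls over all groups (adjusted p = 0.0716) and in torpor against long photoperiod (-2.29, adjusted p = 0.0907), and the Kiss1 call in refractory against interbout euthermia (1.08, adjusted p = 0.112; edgeR).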

Other observations

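Genes of hormone receptors and signalling upstream of the peptides were followed from a list of 27, of which 24 were tested. In torpor 4 of 24 rose against long photoperiod: the immediate early genes Fos (5.10 ± 1.41 to 49.4 ± 4.62 CPM, log2 fold change 3.27 ± 0.28, adjusted p = 6.17e-10, edgeR, n = 6), Egr1 (2.21 ± 0.41, adjusted p = 0.000292) and Junb (2.17 ± 0.44, adjusted p = 0.00102), and the thyroid hormone receptor gene Thrb (1.43 ± 0.24, adjusted p = 0.000121). Fos, Egr1 and Junb also rose from interbout euthermia to torpor, by 3.06 ± 0.28, 2.43 ± 0.41 and 2.26 ± 0.45, where none of the 8 peptide genes passed. In torpor 2 of 24 fell against long photoperiod, among them the insulin receptor gene Insr (-0.72 ± 0.17, adjusted p = 0.00446). Against interbout euthermia 2 of 24 fell in torpor, again with Insr among them (-0.60 ± 0.17, adjusted p = 0.0328). Thrb was 32.6 ± 6.14 CPM in long photoperiod and 77.9 ± 18.8 to 99.3 ± 18.8 CPM in the 4 groups from pre-hibernation to torpor, and rose in each of those comparisons. It fell from interbout euthermia to the refractory state (-0.99 ± 0.24, adjusted p = 0.0214), a call lost without the rRNA-rich libraries. In that comparison 2 of 24 rose and 2 fell. Over all 6 groups 11 of 24 passed, beside 14.6% of all genes. With both scores as covariates Thrb did not pass in pre-hibernation, nor Junb and Insr in torpor against long photoperiod.

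Of 36 listed transcription factors of hypothalamic neurons, 29 were tested. Against long photoperiod 2 of 29 rose in pre-hibernation, 1 in late pre-hibernation and 1 in torpor, and 1 rose from interbout euthermia to the refractory state. With both scores as covariates 0 of 29 rose in each of these comparisons. Torpor had 3 lower than long photoperiod: Dlx5 (2.39 ± 0.687 to 0.653 ± 0.282 CPM, -1.86 ± 0.35, adjusted p = 0.000443, edgeR), Lhx1 (-1.79 ± 0.44, adjusted p = 0.00695) and Rax, which is also a tanycyte marker (-0.94 ± 0.30, adjusted p = 0.0397). Dlx5 also fell from interbout euthermia to torpor (-1.92 ± 0.35, adjusted p = 0.000642), and passed there and against long photoperiod with both scores as covariates, where Lhx1 and Rax did not pass against long photoperiod.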
